A study of Mus musculus with 22 samples.

Results

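The genes described here act in the breakdown and transport of the branched-chain amino acids leucine, isoleucine and valine. They are 31 genes chosen by name from textbook biochemistry, with earlier results of these data known. Among them are 2 enzymes of lysine breakdown. All 31 were measured among the 16602 genes tested in epididymal white adipose tissue, the fat pad attached to the epididymis. Hypoxia mice (n = 10) were kept at 12% oxygen for 6 hours, and normoxia mice (n = 12) stayed at 20.9% oxygen for the same time. Males of the inbred strain C57BL/6JOlaHsd made up both groups. They were delivered at an age of 10 weeks, ate a low-fat purified diet (10% of the energy) for 3 weeks and a high-fat one (40%) for the following 6 weeks, and were fasted before the exposure. The treatment text also mentions low-fat feeding without saying which mice received it, so diet could not be modelled. Each mouse gave 1 Cy5-labelled sample, and a Cy3-labelled pool made from every sample was the common partner on the 2-colour Agilent arrays, without a dye swap. A value is the log2 ratio of a mouse to that pool, and a difference is hypoxia minus normoxia on this log2 scale. Whole fat pads were measured, so fewer cells of a type and less RNA per cell cannot be told apart.

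Branched-chain amino acids enter cells through exchangers made of a light chain (Slc7a5 or Slc7a8) and the heavy chain Slc3a2. They lose their amino group to the aminotransferases Bcat1, in the cytosol, and Bcat2, in mitochondria. The keto acids that result are then committed to oxidation by the branched-chain keto acid dehydrogenase complex (BCKDH), which the kinase Bckdk inhibits and the phosphatase Ppm1k activates. Separate branches then lead from leucine to acetyl-CoA and acetoacetate, and from valine and isoleucine to propionyl-CoA and succinyl-CoA. Adipose tissue is known as a site of this breakdown, and its adipocytes use the carbon for lipid synthesis as they differentiate.

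The upstream sequences of 2 transport genes and of both subunits of methylcrotonyl-CoA carboxylase are shown because the values below turn on these genes. Each is the 250 bases before the annotated start in RefSeq, build GRCm38.p6, on the strand of the gene, which is the minus strand for all of them. Slc3a2 covers chr19:8713898-8714147, Slc7a8 chr14:54781887-54782136, Mccc1 chr3:36000679-36000928 and Mccc2 chr13:100015640-100015889. Capitals mark ACGTG or GCGTG on either strand, the core letters of a hypoxia response element.
Slc3a2: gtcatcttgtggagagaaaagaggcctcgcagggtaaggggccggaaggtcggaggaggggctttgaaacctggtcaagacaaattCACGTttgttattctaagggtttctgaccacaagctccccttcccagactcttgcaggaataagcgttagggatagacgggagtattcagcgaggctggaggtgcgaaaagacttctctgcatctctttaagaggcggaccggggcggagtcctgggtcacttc
Slc7a8: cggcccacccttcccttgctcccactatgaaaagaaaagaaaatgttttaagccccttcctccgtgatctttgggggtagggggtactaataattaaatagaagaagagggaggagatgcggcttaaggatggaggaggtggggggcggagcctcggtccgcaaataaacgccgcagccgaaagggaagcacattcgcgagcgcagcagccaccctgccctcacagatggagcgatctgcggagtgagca
Mccc1: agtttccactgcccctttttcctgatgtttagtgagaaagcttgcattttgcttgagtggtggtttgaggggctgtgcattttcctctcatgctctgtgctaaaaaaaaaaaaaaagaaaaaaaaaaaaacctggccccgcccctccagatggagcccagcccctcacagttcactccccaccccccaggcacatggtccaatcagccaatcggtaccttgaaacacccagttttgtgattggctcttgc
Mccc2: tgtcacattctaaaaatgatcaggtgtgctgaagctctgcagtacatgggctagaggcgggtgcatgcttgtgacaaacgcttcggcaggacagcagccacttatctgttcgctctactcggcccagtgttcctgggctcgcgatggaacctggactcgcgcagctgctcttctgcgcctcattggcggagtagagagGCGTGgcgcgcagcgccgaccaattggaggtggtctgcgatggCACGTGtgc
Slc3a2 held ACGTG on the opposite strand at -164 to -160 from its start. Mccc2 held GCGTG at -52 to -48, and ACGTG on both strands at -9 to -4, where the matches overlap in a palindrome. No match was found in the windows of Slc7a8 and Mccc1. Of the upstream windows of all genes (32851), 16.6% held ACGTG, 28.2% held GCGTG and 38.6% held either. For 26 of the 31 genes a window was found, 31 windows in all with alternative starts, and 15 windows of 13 genes held either core. An amino acid response element, searched as TGATGNAAT on both strands, lay in 0.816% of all windows and among these genes in that of Echs1 alone. Dbt, Acat1, Mut, Slc7a5 and Abat were not analysed here for upstream sequence.

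With 22 arrays, no gene of the pathway and no other gene passed an adjusted p of 0.05 in limma's test (0% of the 16602 genes), and the lowest adjusted p over all genes was 0.0692. Unadjusted p-values under 0.05 were found for 880 genes, or 5.30% of those tested, and for 3 of the 31 pathway genes. Of these 3, Slc3a2 and Slc7a8 had higher values in hypoxia (background 2.57% of genes) and Mccc2 had lower ones (background 2.73%). Counted by probe, 3 of the 36 tested probes of the pathway had an unadjusted p under 0.05, against 5.23% of all probes. A difference above 0 was found for 16 of the 31 genes, against 50.4% of all genes. Their median difference was 0.0068, against 0.0011 over all genes, and their median absolute difference was 0.050, against 0.070 over all genes. The hypoxia and normoxia values overlapped for each of the 31 genes, as they did for all genes tested (0% without overlap).

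**Figure D1:**
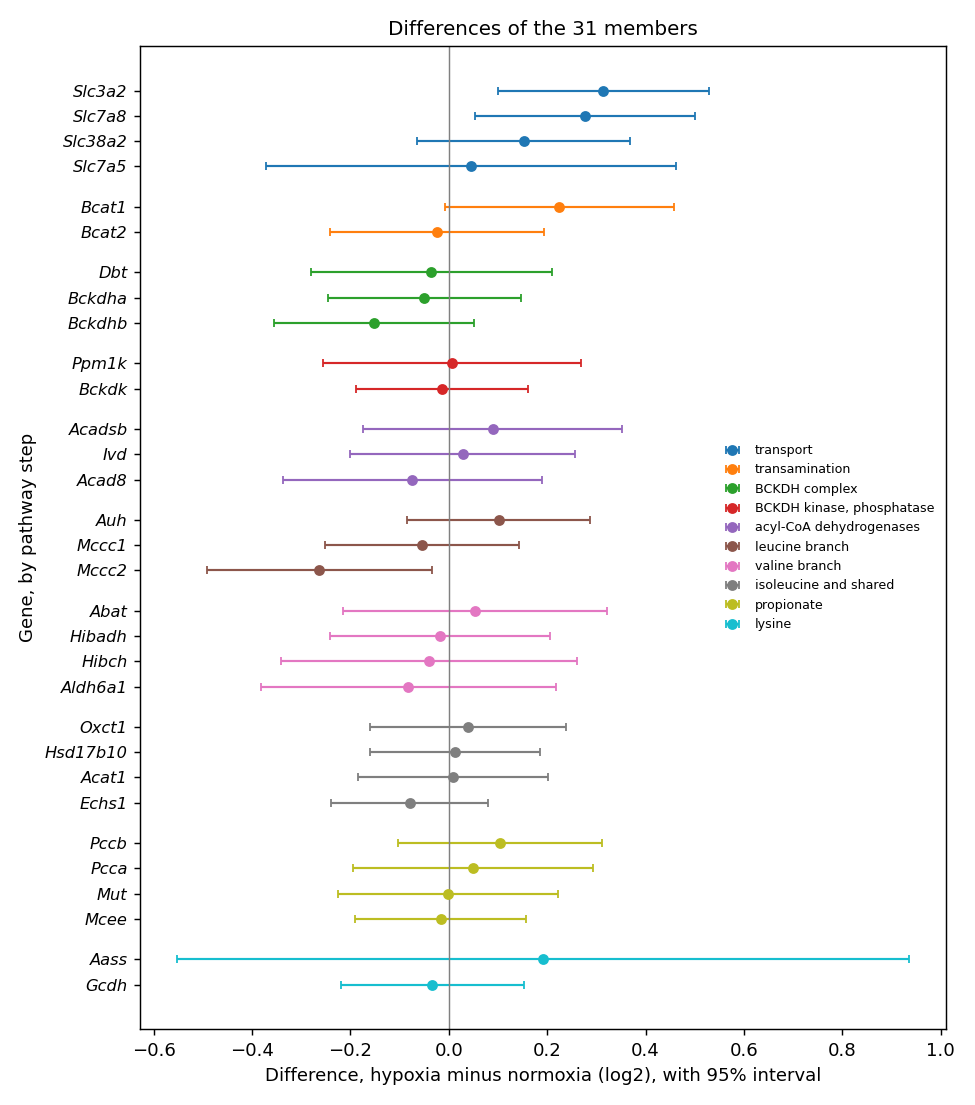
Differences of the 31 genes (x axis, hypoxia minus normoxia, log2 scale, with 95% intervals from limma), ordered by pathway step. The intervals of Slc3a2 and Slc7a8 lie above 0 and that of Mccc2 lies below 0, while all others include 0.

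The arrays lay on 6 slides, and 5 of these carried both groups. In Cy5, 14.7% to 75.8% of an array's spots were well above background, and this share was at most 17.8% on the 4 arrays of slide 1, against at least 28.1% elsewhere. Of the lists of marker genes, all 12 adipocyte markers, among them Adipoq, were well above background on all 22 arrays. The mean of the adipocyte list was 0.21 ± 0.29 in hypoxia (SD, n = 10) and 0.18 ± 0.31 in normoxia (SD, n = 12). Of the 12 markers, 10 had a difference above 0. Adrb3 alone had an unadjusted p under 0.05, with a difference of -0.76 (limma, unadjusted p = 0.00703, adjusted p = 0.748). All 10 hypoxia mice lay below its normoxia mean. Ranges given for the next lists are those of the mean of a list in each mouse, not of single markers. The smooth muscle mean ranged from -0.48 to 0.35 in hypoxia and from -0.86 to 0.19 in normoxia, over 6 of 6 markers measured. All 6 markers had a positive difference and 3 had an unadjusted p under 0.05. The red blood cell mean ranged from -0.39 to 0.93 in hypoxia and from -0.78 to 0.53 in normoxia, over 4 of 5 markers. All 4 markers had a positive difference and 3 had an unadjusted p under 0.05. The mesothelial mean ranged from -0.58 to 0.79 in hypoxia and from -0.60 to 0.31 in normoxia, over 6 of 6 markers. All 6 markers had a positive difference and 1 had an unadjusted p under 0.05. The sperm mean ranged from -2.28 to 0.71 in hypoxia and from -2.58 to 2.28 in normoxia, over 4 of 6 markers. The epididymis mean ranged from -1.93 to -0.58 in hypoxia and from -1.87 to 1.63 in normoxia, over 2 of 6 markers. The macrophage mean ranged from -0.32 to 0.27 in hypoxia and from -0.39 to -0.027 in normoxia, over 10 of 10 markers. Of these markers, 8 had a positive difference and 2 had an unadjusted p under 0.05. Endothelial markers had 6 of 8 differences above 0. Among them Kdr alone had an unadjusted p under 0.05, with 0.23 (limma, unadjusted p = 0.00175, adjusted p = 0.508). Progenitor markers had 3 of 6 and lymphocyte markers 2 of 5 differences above 0, with no unadjusted p under 0.05. Over all genes tested, 50.4% had a difference above 0 and 5.30% had an unadjusted p under 0.05. The part of these cell types in the differences below was not tested. As a check of the oxygen labels, Slc16a3, a lactate exporter and target of the hypoxia-inducible factors, averaged -0.056 ± 0.31 in hypoxia and -0.50 ± 0.33 in normoxia, and Hilpda, a lipid droplet protein induced by the same factors, averaged 0.0058 ± 0.35 in hypoxia and -0.42 ± 0.30 in normoxia (SD, n = 10 and 12). Their unadjusted p-values were 0.00159 and 0.00289 (limma, adjusted p = 0.508 and 0.599). Of the 10 measured targets on the list of this check, 9 had a difference above 0 and 4 had an unadjusted p under 0.05, while Vegfa, which drives vessel growth, had -0.065 (unadjusted p = 0.518). The list was chosen with earlier results of these data known, so it is not an independent check of the labels.

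The 2 largest positive differences of the pathway belonged to transport genes. All 4 of them had a difference above 0, with a median of 0.21. Of the 27 enzymes and regulators, 12 did, with a median of -0.014, and of all genes 50.4% did. The 8 further transporters described below had 4 differences above and 4 below 0, with a median of -0.0058. Of the 4 transport genes among the 31, 2 had an unadjusted p under 0.05, against 5.30% of all genes. With each array centred on its median in place of loess, which moved the median of all genes to -0.21, 2 of the 4 lay above 0 and 4 of the 4 above that median. The count among the other 27 genes depended on the setting. Above the median of all genes lay 12 of them in the fit reported, 8 with median centring, 16 with slide as a block and 17 in the log ratios of the scanner software, while 3 of the 4 transport genes did so with slide as a block and 4 of the 4 with the other settings named.

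Slc3a2, the heavy chain that brings light chains to the cell surface, ran from -0.70 to 0.31 with a median of -0.19 in hypoxia, and from -0.74 to 0.037 with a median of -0.60 in normoxia. Most hypoxia mice lay above most normoxia mice, with 9 of 10 above the normoxia mean, although the ranges overlapped. The means were -0.21 ± 0.25 in hypoxia (SD, n = 10) and -0.52 ± 0.25 in normoxia (SD, n = 12), a difference of 0.31 with a 95% interval of 0.099 to 0.53 (1.24-fold, limma, unadjusted p = 0.00576, adjusted p = 0.746). Within the slides the difference was -0.0043, 0.47, 0.055, 0.39 and 0.49 on slides 1, 3, 4, 5 and 6. It was thus near 0 on 2 slides, and the fit with slide as a block gave 0.28 with an unadjusted p of 0.00605 (adjusted p = 0.665), where 5.65% of genes had an unadjusted p under 0.05. Its probe lies on chromosome 19 at 8782189 to 8782248 of build mm9, on the minus strand, and was well above background on all 22 arrays.

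Slc7a8, the light chain LAT2 of an exchanger for neutral amino acids, ran from -0.26 to 0.40 with a median of 0.12 in hypoxia, and from -0.93 to 0.21 with a median of -0.045 in normoxia. The hypoxia values were again mostly the higher ones, 9 of 10 above the normoxia mean, and 1 normoxia mouse lay far below the rest. The means were 0.10 ± 0.18 in hypoxia and -0.17 ± 0.31 in normoxia, a difference of 0.28 with a 95% interval of 0.054 to 0.50 (1.21-fold, limma, unadjusted p = 0.0171, adjusted p = 0.849). The difference was positive on all 5 slides, between 0.14 on slide 1 and 0.53 on slide 6. A single sign on all 5 slides was found for 8.15% of all genes. With slide as a block the difference was 0.32 (unadjusted p = 0.00775, adjusted p = 0.727). Its probe lies on chromosome 14 at 55341137 to 55341196 of mm9, on the minus strand. Over the mice it followed the red blood cell markers (r = 0.608) and the macrophage markers (r = 0.534), neither past the threshold over 341 relations.

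Slc38a2, the sodium-coupled transporter SNAT2 of small neutral amino acids, ran from -0.46 to 0.24 with a median of 0.059 in hypoxia, and from -0.77 to 0.063 with a median of -0.14 in normoxia. The difference was 0.15 with a 95% interval of -0.065 to 0.37 (unadjusted p = 0.162, limma, adjusted p = 0.978). It was positive on 4 slides and -0.33 on slide 6.

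Slc7a5, the light chain LAT1 and main importer of leucine in many growing cells, ran from -0.31 to 1.55 with a median of 0.27 in hypoxia, and from -0.40 to 1.43 with a median of 0.21 in normoxia. The difference was 0.045 with a 95% interval of -0.37 to 0.46, so that neither a rise nor a fall of the size seen for Slc3a2 lies outside its interval. A second probe of the gene gave 0.054. Its spread within groups was 0.53 (SD), larger than that of 97.1% of all genes, whose median was 0.23. The light chain Slc7a5 and the heavy chain Slc3a2 had r = 0.130 over the mice, and 0.489 in the log ratios of the scanner software (permutation test, adjusted p = 0.885 and 0.0756).

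**Figure D2:**
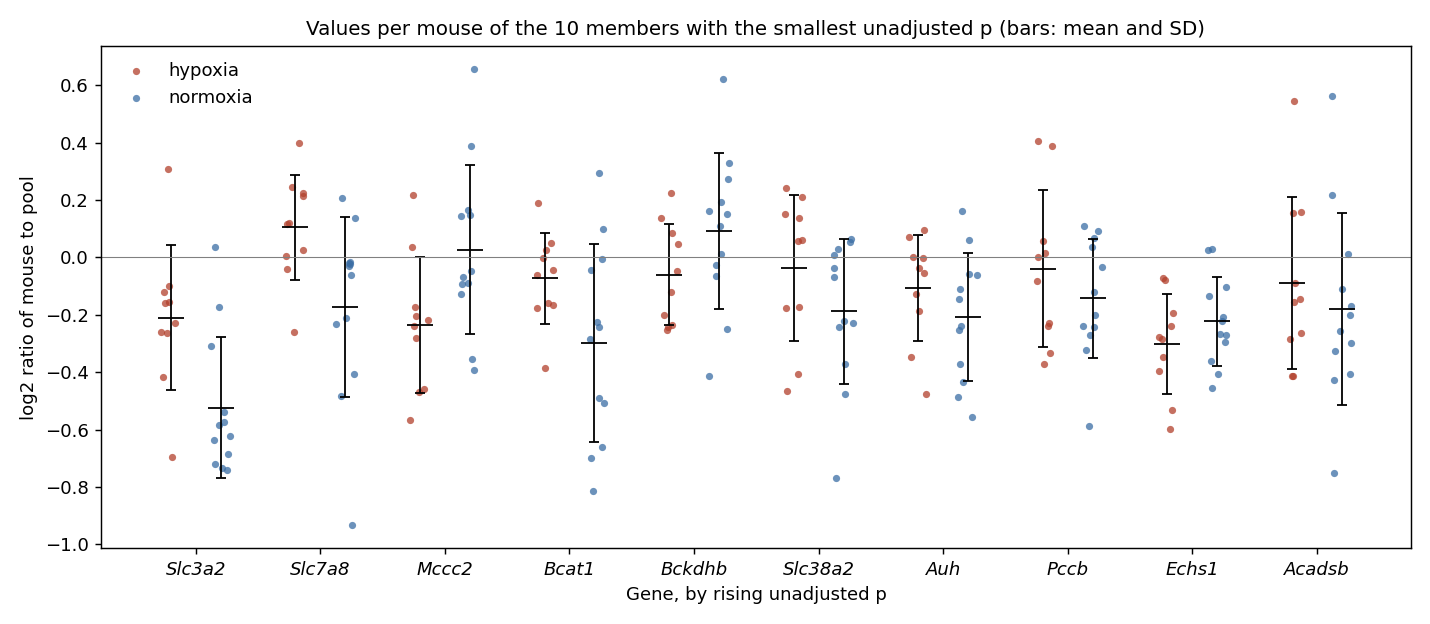
Log2 ratio of each mouse to the pool (y axis) for the 10 genes with the smallest unadjusted p, hypoxia left of normoxia for each gene (points: mice, bars: mean and SD, n = 10 and 12). Slc3a2 and Slc7a8 sit higher and Mccc2 lower in hypoxia, with overlapping ranges for all 10 genes.

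At the transamination step, the intervals of both aminotransferases included 0. Bcat1, the cytosolic one, ran from -0.39 to 0.19 with a median of -0.053 in hypoxia, and from -0.81 to 0.30 with a median of -0.26 in normoxia. The hypoxia values were packed in the upper part of the wider normoxia range. The difference was 0.22 with a 95% interval of -0.0081 to 0.46 (unadjusted p = 0.0579, limma, adjusted p = 0.951), and it was positive on 4 slides and -0.32 on slide 1. Without slide 1 it was 0.34 (unadjusted p = 0.00726, adjusted p = 0.948), and over all alternatives it ran from 0.083 to 0.49. Its probe was well above background on 7 of 10 hypoxia arrays and 6 of 12 normoxia arrays, and 2 other probes of the gene were too dim to be tested. Bcat2, the mitochondrial aminotransferase that predominates in fat, ran from -0.79 to 0.22 with a median of -0.32 in hypoxia, and from -0.70 to 0.061 with a median of -0.35 in normoxia. Its difference was -0.024 with a 95% interval of -0.24 to 0.19.

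The BCKDH subunits Bckdhb, Bckdha and Dbt had differences below 0, none past the threshold, while Dld, described below, had a difference above 0. Bckdhb, the beta subunit of the decarboxylase, ran from -0.25 to 0.22 with a median of -0.083 in hypoxia, and from -0.41 to 0.62 with a median of 0.13 in normoxia. Below the normoxia mean lay 8 of 10 hypoxia mice. The difference was -0.15 with a 95% interval of -0.36 to 0.051 (unadjusted p = 0.136, limma, adjusted p = 0.970), and it was negative on 4 of 5 slides. Bckdha, the alpha subunit, ran from -0.0074 to 0.38 with a median of 0.21 in hypoxia, and from -0.25 to 0.68 with a median of 0.26 in normoxia, a difference of -0.050 with a 95% interval of -0.25 to 0.15. Dbt, the transacylase core, ran from -0.30 to 0.39 with a median of -0.019 in hypoxia, and from -0.76 to 0.51 with a median of 0.080 in normoxia, a difference of -0.035 with a 95% interval of -0.28 to 0.21. For both, the hypoxia range lay inside the normoxia range. With slide as a block the difference was -0.034 for Bckdha and 0.020 for Dbt. Bckdha was positive on 2 and Dbt on 3 of the 5 slides. Dbt kept its sign in 8 of 13 alternatives other than leaving out an array.

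The enzymes that switch the complex had the smallest differences of all steps, with a median absolute difference of 0.011. Bckdk, the inhibiting kinase, ran from -0.41 to 0.047 with a median of -0.19 in hypoxia, and from -0.40 to 0.20 with a median of -0.28 in normoxia, a difference of -0.014 with a 95% interval of -0.19 to 0.16. Ppm1k, the activating phosphatase, ran from -0.42 to 0.20 with a median of -0.14 in hypoxia, and from -0.91 to 0.34 with a median of -0.19 in normoxia, a difference of 0.0068 with a 95% interval of -0.26 to 0.27. The groups lay on top of each other for both genes. Dld, the third component of the complex, which other dehydrogenases share, averaged 0.0046 ± 0.20 in hypoxia and -0.13 ± 0.14 in normoxia, a difference of 0.13 (unadjusted p = 0.111, limma, adjusted p = 0.963).

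On the leucine branch, both subunits of methylcrotonyl-CoA carboxylase, a biotin enzyme, had differences below 0. Mccc2, its beta subunit, ran from -0.57 to 0.22 with a median of -0.23 in hypoxia, and from -0.39 to 0.66 with a median of -0.057 in normoxia. The hypoxia values were mostly the lower ones, with 8 of 10 below the normoxia mean. The means were -0.24 ± 0.24 in hypoxia (SD, n = 10) and 0.027 ± 0.30 in normoxia (SD, n = 12), a difference of -0.26 with a 95% interval of -0.49 to -0.034 (limma, unadjusted p = 0.0258, adjusted p = 0.874). It was negative on 4 slides and 0.25 on slide 4, and with slide as a block it was -0.21 (unadjusted p = 0.0675). The probe lies on chromosome 13 at 100718508 to 100718567 of mm9 and was well above background on 8 of 10 hypoxia arrays and 11 of 12 normoxia arrays.

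Mccc1, the alpha subunit that carries the biotin, ran from -0.27 to 0.32 with a median of 0.046 in hypoxia, and from -0.46 to 0.33 with a median of 0.15 in normoxia. Its difference was -0.054 with a 95% interval of -0.25 to 0.14, and its second probe gave -0.094. Whether the differences of Mccc1 and Mccc2 are unequal was not tested. Auh, the hydratase that follows, ran from -0.48 to 0.097 with a median of -0.045 in hypoxia, and from -0.56 to 0.16 with a median of -0.19 in normoxia. Its brightest probe gave a difference of 0.10 (unadjusted p = 0.271), and 2 other probes gave -0.040 and -0.12, so the probes disagreed in sign. Ivd, the isovaleryl-CoA dehydrogenase that starts the branch, had a difference of 0.028.

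**Figure D3:**
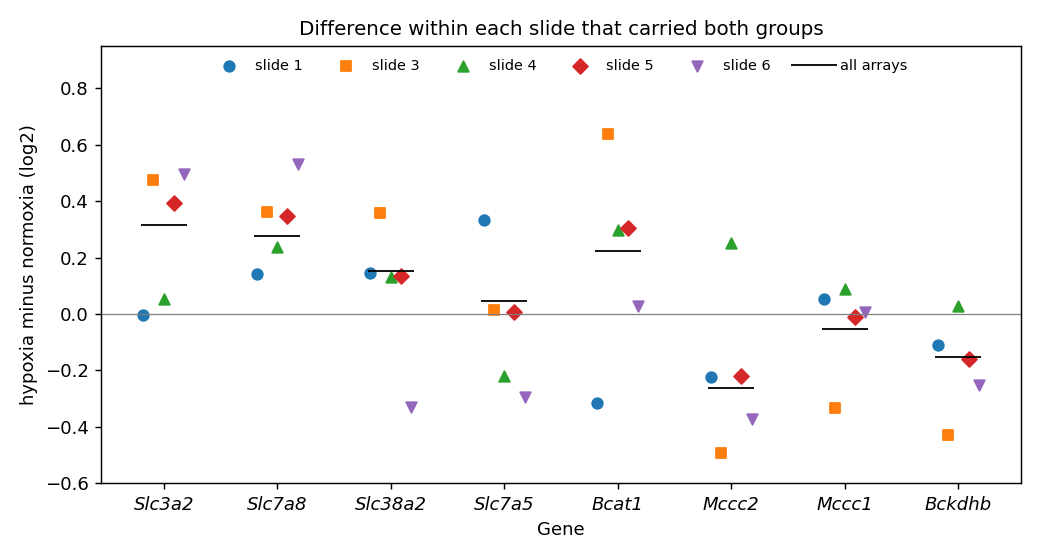
Difference of hypoxia minus normoxia (y axis, log2 scale) on each of the 5 slides with both groups (symbols) and over all arrays (black bars), for 8 genes. Slc7a8 lies above 0 on all 5 slides, while Slc3a2 is near 0 on slides 1 and 4 and Mccc2 is above 0 on slide 4.

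The other dehydrogenases, hydratases and thiolases of the pathway gave differences between -0.083 and 0.089. Acadsb, which oxidises the isoleucine intermediate, ran from -0.41 to 0.55 with a median of -0.15 in hypoxia, and from -0.75 to 0.56 with a median of -0.23 in normoxia, a difference of 0.089 (unadjusted p = 0.492). Acad8, its counterpart for valine, had -0.074. Echs1, the short-chain enoyl-CoA hydratase, ran from -0.60 to -0.070 with a median of -0.28 in hypoxia, and from -0.46 to 0.028 with a median of -0.25 in normoxia, a difference of -0.079 with a 95% interval of -0.24 to 0.080 (unadjusted p = 0.315). It had the lowest spread within groups of the 31 genes, 0.16. On the isoleucine and shared steps, Hsd17b10, a hydroxyacyl-CoA dehydrogenase, had 0.013, Acat1, the mitochondrial thiolase, 0.0078 and Oxct1, which activates ketone bodies, 0.039. Of the valine enzymes, Hibch, the hydrolase that frees 3-hydroxyisobutyrate, had -0.040, Hibadh, which oxidises that acid, -0.018, and Abat, an aminotransferase of the end of the branch, 0.053. Aldh6a1, the methylmalonate semialdehyde dehydrogenase, had -0.083 by its brighter probe and 0.033 by the other. Every one of these intervals included 0.

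The propionate genes lay near 0 as well. Pccb, the beta subunit of propionyl-CoA carboxylase, ran from -0.37 to 0.41 with a median of -0.041 in hypoxia, and from -0.59 to 0.11 with a median of -0.16 in normoxia. Its difference of 0.10 (unadjusted p = 0.313) was positive on 4 slides and -0.33 on slide 4. Pcca, the alpha subunit, ran from -0.48 to 0.26 with a median of -0.043 in hypoxia, and from -0.88 to 0.19 with a median of -0.11 in normoxia, a difference of 0.049. The epimerase Mcee had -0.016, and the mutase Mut, named Mmut in RefSeq, had -0.0017 with a 95% interval of -0.23 to 0.22.

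Of the lysine enzymes, Aass stood apart in its spread. Aass, the first enzyme of lysine breakdown, ran from -1.69 to 0.80 in hypoxia and from -1.76 to 1.65 in normoxia, with a spread within groups of 0.97 (SD), larger than that of 99.4% of all genes. Its difference of 0.19 had a 95% interval of -0.55 to 0.94, too wide to show a change of the size seen for Slc3a2. Gcdh, the glutaryl-CoA dehydrogenase, had a difference of -0.034 with a 95% interval of -0.22 to 0.15.

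Further genes of the pathway were described from lists beside the 31. None of the 20 further enzymes measured out of 23 had an unadjusted p under 0.05, with 8 above and 12 below 0. Hadhb, a subunit of the mitochondrial trifunctional protein, had -0.21 (unadjusted p = 0.0823) and the peroxisomal thiolase Acaa1b -0.16 (unadjusted p = 0.0865). None of the 8 further transporters measured out of 13 had an unadjusted p under 0.05, with 4 above and 4 below 0. Slc25a44, the mitochondrial carrier of branched-chain amino acids, had 0.17 (unadjusted p = 0.121) and was positive on all 5 slides, as was the leucine transporter Slc43a2 with 0.14 (unadjusted p = 0.110). Such a single sign was found for 8.15% of all genes. Slc7a9, a light chain known from kidney, had 0.26 with a 95% interval of -0.85 to 1.37.

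Among 12 cofactor and electron transfer genes, 1 had an unadjusted p under 0.05, a share near the 5.30% of all genes. This was Mmaa, a chaperone that loads cobalamin onto the mutase, which ran from -0.69 to -0.39 with a median of -0.54 in hypoxia, and from -0.57 to -0.081 with a median of -0.27 in normoxia. All 10 hypoxia mice lay below the normoxia mean. The difference was -0.21 with a 95% interval of -0.36 to -0.063 (limma, unadjusted p = 0.0070, adjusted p = 0.748), and it was negative on all 5 slides. Abcd4, a lysosomal cobalamin transporter, had -0.12 (unadjusted p = 0.106) and Pcx, pyruvate carboxylase, -0.10. Of the other lysine genes, Dlst, Aldh7a1 and Dhtkd1 had -0.037, -0.036 and 0.017. Of 11 regulators and sensors, 2 had an unadjusted p under 0.05, against 5.30% of all genes. Esrra, a nuclear receptor for mitochondrial genes, averaged -0.24 ± 0.16 in hypoxia and 0.020 ± 0.15 in normoxia (difference -0.26, limma, unadjusted p = 0.0018, adjusted p = 0.508), and Mlxipl, the carbohydrate response factor ChREBP, averaged 0.014 ± 0.18 in hypoxia and 0.29 ± 0.22 in normoxia (difference -0.27, unadjusted p = 0.00556, adjusted p = 0.746). Both were negative on all 5 slides, where 8.15% of all genes had a single sign. Sesn1, of the family of leucine sensors, had 0.12 (unadjusted p = 0.193). Klf15, a factor known from mouse muscle and liver to raise genes of this breakdown, had 0.092 with a 95% interval of -0.32 to 0.51.

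Whether enzymes of the pathway varied together from mouse to mouse was asked with the group means removed. The first 11 relations were pairs of known partners, and Bckdha, Mccc1 and Pccb with the adipocyte gene Adipoq. Mccc1 and Mccc2, subunits of 1 carboxylase, had r = 0.707 and rho = 0.753 over 22 mice (permutation test, two-sided, 100000 resamples, adjusted p = 0.00176 for r and 0.00066 for rho over 11 relations). Without the 2 arrays farthest from the median of Mccc1 r was 0.624, with slide means removed as well it was 0.626, and it was 0.809 within hypoxia and 0.648 within normoxia. Of 16601 other genes, Mccc2 ranked 139 by its r with Mccc1. Both genes ran against the mean of the 2 measured epididymis markers, with r = -0.681 for Mccc1 and -0.596 for Mccc2. The adjusted p-values were 0.106 and 0.112 over 341 relations (permutation test). Without 2 arrays r was -0.404 for Mccc1 and -0.456 for Mccc2. The part of these markers in the pair was not tested.

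The other partner pairs and the relations with Adipoq did not pass with the group means alone removed. Bckdha had r = -0.0045 with Bckdhb, its partner in the decarboxylase, and 0.186 with Dbt. Bckdk and Ppm1k, which oppose each other, had -0.178. Bcat2 and Bckdha, of successive steps, had -0.0043, and the carboxylase subunits Pcca and Pccb had 0.102. Slc7a8 and its heavy chain Slc3a2 had 0.214. Against the adipocyte gene Adipoq, which ran from 0.029 to 1.31 with a median of 0.34 in hypoxia and from -0.43 to 1.67 with a median of 0.32 in normoxia, Bckdha had 0.273, Mccc1 had -0.058 and Pccb had 0.511. With slide means removed these were 0.559 for Bckdha (adjusted p = 0.0614), 0.714 for Mccc1 (adjusted p = 0.00963) and 0.144 for Pccb, and without slide 1 they were 0.645, 0.520 and 0.0005 in that order. With the group means alone removed, the adjusted p-values of the 10 relations were 0.0821 for Pccb and Adipoq and at least 0.786 for the rest (permutation test).

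All 465 pairs of the 31 genes were then compared in the same way, a step added after the data were seen. Their median r was 0.146, against 0.022 over all gene pairs, and 11.2% of them had r above 0.5, against 5.34% of all gene pairs. An adjusted p under 0.05 was found for 38 pairs, 32 positive and 6 negative (permutation test, adjusted over 465). Pairs share mice, slides and genes, so they are not independent of each other. All 38 kept their sign with slide means removed and in the log ratios of the scanner software. With slide means removed 20 pairs passed, 15 of them among the 38, in the software's log ratios 70 pairs passed, 19 of them among the 38, and without slide 1, 35 passed, 30 of them among the 38.

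Under all of these settings 6 pairs passed, and 5 of them join Dbt, Hibch, Acadsb and Mut. Hibch, of the valine branch, and Mut, the last enzyme of the propionate route, had r = 0.844 and rho = 0.858 (adjusted p = 0.00155 for each, permutation test), and 0.802 without 2 arrays. Hibch and Acadsb had r = 0.840 and rho = 0.747, and 0.685 without 2 arrays. Dbt had 0.816 with Mut (rho = 0.824), 0.801 with Hibch (rho = 0.861) and 0.717 with Acadsb (rho = 0.570). These 4 genes lie on 4 different steps, and in the comparison of the groups their differences ran from -0.040 to 0.089. The sixth pair was Ivd and Hsd17b10, with r = 0.735 and rho = 0.810. Over the mice, r with the share of spots above background in Cy5 was -0.272 for Dbt, 0.119 for Hibch, 0.129 for Acadsb and 0.026 for Mut, and with the adipocyte marker list it was 0.460, 0.219, 0.126 and 0.290 in the same order of genes. All 4 genes ran against the markers of sperm, with r = -0.452 for Dbt, -0.528 for Hibch, -0.463 for Acadsb and -0.565 for Mut, and against those of epididymis, with -0.396, -0.594, -0.501 and -0.525 in that order. Without 2 arrays r was -0.43, -0.52, -0.51 and -0.57 with sperm and -0.13, -0.40, -0.54 and -0.30 with epididymis, in that order. Over all 22 mice the adjusted p-values of these 8 relations were at least 0.112 (permutation test). The part of these markers in the pairs was not tested.

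Slc38a2 was on the other side of most negative pairs, 5 of 6. It had r = -0.788 with Hibch (rho = -0.718, adjusted p = 0.00186), -0.734 with Aldh6a1, -0.673 with Abat, -0.635 with Acadsb and -0.627 with Hibadh. In the log ratios of the scanner software the first of these was -0.179 and the second -0.538, and the cause of the change was not tested. The sixth negative pair was Mccc1 and the lysine enzyme Aass, with r = -0.710 (rho = -0.693, adjusted p = 0.00581) and -0.766 in the software's log ratios. Slc3a2, which had the smallest unadjusted p between the groups, passed with none of the other 30 genes.

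**Figure D4:**
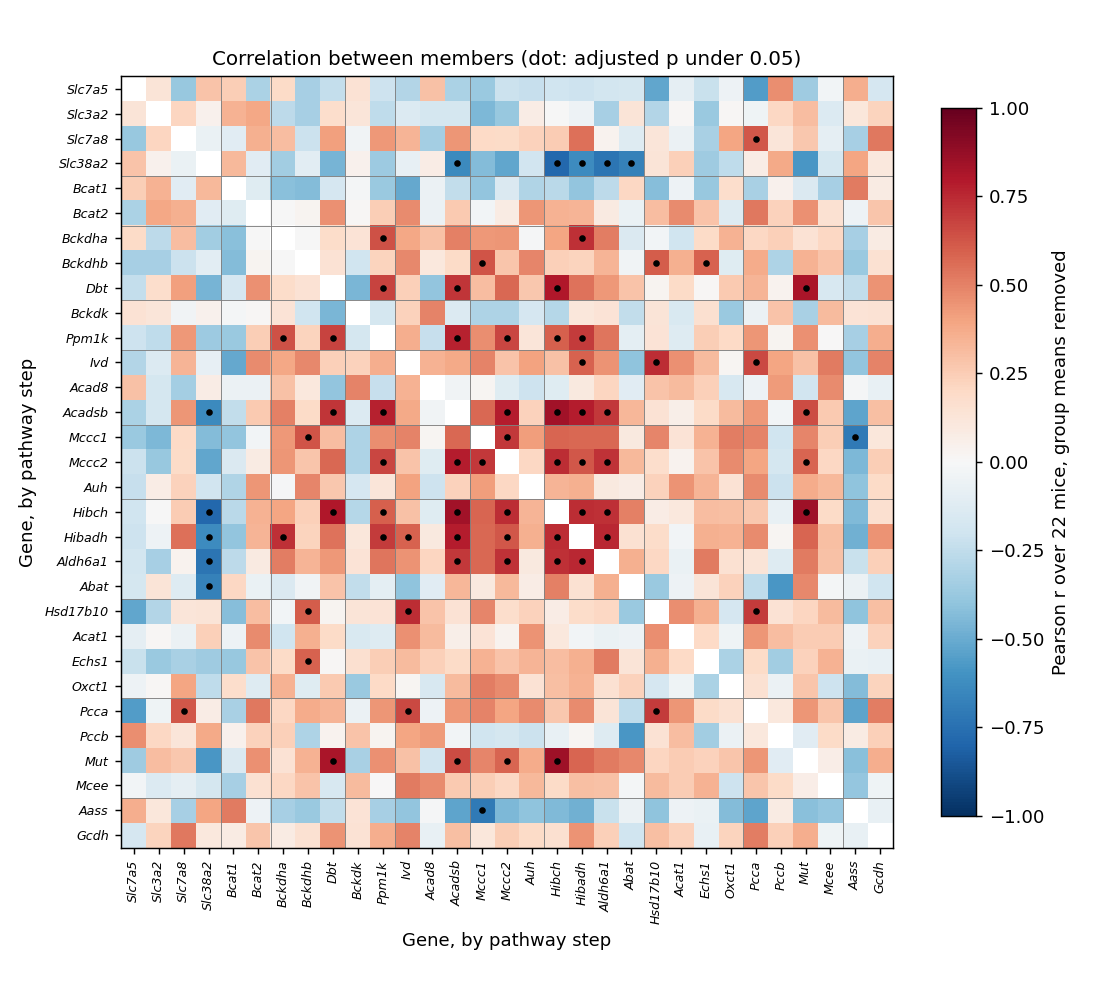
Pearson r between the 31 genes over 22 mice with group means removed (colour scale), ordered by pathway step. Dots mark the 38 pairs with an adjusted p under 0.05, among which 5 of the 6 negative pairs lie in the row of Slc38a2.

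**Figure D5:**
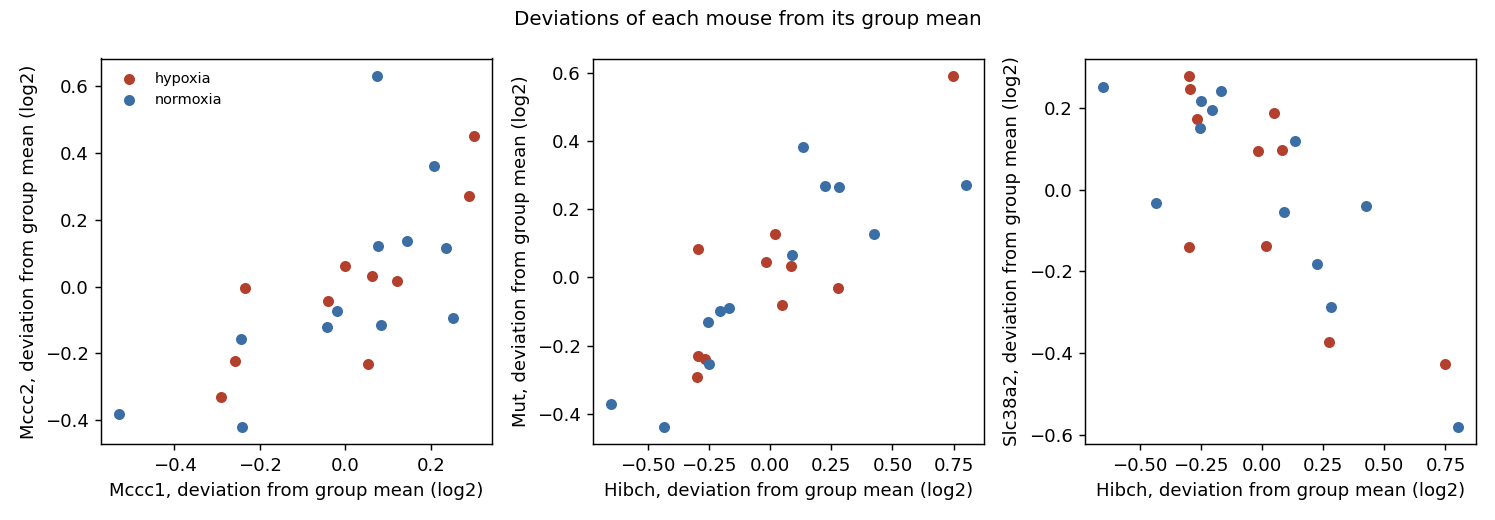
Deviation of each mouse from its group mean (both axes, log2 scale) for Mccc1 and Mccc2 (left), Hibch and Mut (middle), and Hibch and Slc38a2 (right), hypoxia mice in red and normoxia mice in blue. The pairs have r = 0.707, 0.844 and -0.788 over 22 mice, and mice of both groups lie along each trend.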

How the data were processed

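Scans were read with Agilent Feature Extraction, version 10.7.3.1 per the submitters' processing notes, and probe coordinates are on mm9, per the file headers. Mean signals and median backgrounds are deposited intensity values as scanned. The same deposited files hold a log10 ratio (Cy5 to Cy3) with the software's background and dye correction, per the file headers, used as an alternative. Another alternative was the deposited series table of log2 values, for which the sources used here give no normalization.

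Background was corrected by normexp (offset 50) and dyes by loess within arrays, control spots having weight 0 (limma 3.58.1, R 4.3.3). Spots flagged as outliers were left out and saturated spots kept. Tested probes (21470 of 55681) had a Cy5 signal flagged as well above background by the software in 10 or more of 22 arrays, and 2 or more values per group. The brightest tested probe stood for a gene. Of 42 probes of the 31 genes, 36 were tested. Gene names were updated through RefSeq, and slide numbers follow barcode order. The fit had group as its only term (lmFit, eBayes), with Benjamini-Hochberg adjustment over all 16602 genes and a threshold of 0.05. The median standard error was 0.098. Precision is limited by the number of arrays. The series text calls the samples biological replicates. In simulated data with known changes the fit was tested before use. Relations over mice used residuals from group means and permutation tests with 100000 resamples, which can give no p below 1e-05.

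The 31 genes, the gene lists, the pairs and the alternatives were chosen with earlier results of these data known. By the rule for named genes, values per mouse are given for the 10 genes of the set with the smallest unadjusted p and for those of the partner pairs, and up to 3 genes of each further list are named beside Dld, Slc25a44, Klf15, Adipoq, Slc16a3 and Hilpda. Alternatives were other background, normalization, filter, probe, slide, replicate and weighting choices, and leaving out each array in turn.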

Additional observations from a re-analysis of the deposited data

Results flagged for a closer look

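In 3 of the 31 genes 1 hypoxia mouse lay apart from the other 9 by Dixon's test at the 95% level, where chance alone gives 1.55 such genes in 31. The 12 normoxia mice were not searched, as the test was set up for groups of 10. Ivd, the isovaleryl-CoA dehydrogenase, was at -0.441 in hypoxia replicate 10, against -0.0307 to 0.287 in the other hypoxia mice. Mut, the methylmalonyl-CoA mutase, was at 0.417 in hypoxia replicate 1, against -0.465 to -0.0471 in the others. The same mouse had the highest hypoxia value of Dbt (0.394), Hibch (0.480) and Acadsb (0.546). Normoxia replicate 6 had the lowest normoxia value of Dbt (-0.758), Acadsb (-0.753) and Mut (-0.610), but not of Hibch. Dbt, Hibch, Acadsb and Mut make up most of the pairs that passed under all settings. Slc7a5, the light chain LAT1, was at 1.55 in hypoxia replicate 5, against -0.311 to 0.643 in the others. Hypoxia replicate 5 lies on slide 1, the dimmest slide.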

How the results depend on the processing

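Over the alternatives other than leaving out an array, 355 of 422 differences of the 31 genes had the sign of the value reported, as had 621 of 682 when 1 array was left out. Bcat1, Bckdhb, Mccc1, Mccc2, Aldh6a1, Echs1, Slc3a2 and Slc7a8 had 1 sign in every alternative run. Slc3a2 and Slc7a8 each had an unadjusted p under 0.05 in 12 of 14 alternatives and with each of 22 arrays left out, Mccc2 in 7 of 13 and 20 of 22, and Bcat1 in 3 of 13 and 5 of 22. The exceptions for Slc3a2 and Slc7a8 were median centring, with 0.028 and 0.0068 against an all-gene median of -0.21 (0.24 and 0.22 above it), and the deposited table, with 0.23 and 0.19. The count of genes past the threshold was 0, and it was 1 with the software's log ratio, with scaling between arrays and with probes above background on all arrays, 2 with slide as a block and without the dimmest slide, and 4 with array weights. It ranged from 0 to 3 with 1 array left out, with 1 without normoxia replicate 4, normoxia replicate 8 or hypoxia replicate 4 and 3 without hypoxia replicate 7. None of the 31 genes passed in any of these. The count of the 31 genes with an unadjusted p under 0.05 was 3, 0 with median centring and with the deposited table and 5 with array weights, and 2 to 4 with 1 array left out. Differences above 0 numbered 16, but 3 with median centring, 9 of 19 genes tested with probes above background on all arrays, 8 with the deposited table, 12 with array weights, 19 with slide as a block, 21 in the software's log ratio and 22 with the replicate block, and 13 to 22 with 1 array left out. The replicate block, for labels that share numbers 1 to 10, gave 0.28 for Slc3a2 (unadjusted p = 0.0235) and 0.26 for Slc7a8 (unadjusted p = 0.0453), with 18 of the 27 genes outside transport above the median of all genes, and 564 genes at an unadjusted p under 0.05 against 880. Of 10 same-numbered pairs, 2 had a correlation over 0.1 (range -0.472 to 0.25), and 0 of 10 hypoxia arrays correlated best with their own number. Low correlations cannot exclude that the numbers pair the mice, so both fits are given. Of the partner pairs and the relations with Adipoq, Bckdk and Ppm1k had 0.118 without 2 arrays and 0.0387 in the software's log ratio. Bcat2 and Bckdha had 0.10 with slide means removed, 0.166 without 2 arrays and 0.316 in the log ratio. Pcca and Pccb had -0.241 in the log ratio, and Slc7a5 and Slc3a2 -0.0244 with slide means removed and 0.489 in the log ratio. Pccb and Adipoq had 0.280 without 2 arrays and 0.144 with slide means removed. Mccc1 and Adipoq had 0.714 with slide means removed, 0.163 without 2 arrays and 0.747 in the log ratio. The count of pairs of the 31 genes past the threshold, 38, was 70 in the log ratio and 20 with slide means removed. The cause of these changes was not tested. Signal over background limits Bcat1, Ppm1k and Acad8 most, whose probes were well above background on 13, 14 and 14 of 22 arrays.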

Other observations

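Each of the 31 genes was also set against the mean of 10 lists of cell type markers and against the share of spots above background, 341 relations in all over 22 mice with group means removed. None passed after adjustment over the 341 (permutation test, two-sided). The smallest adjusted p, 0.0887, belonged to Hibadh, the 3-hydroxyisobutyrate dehydrogenase, and the sperm markers, with r = -0.700 and rho = -0.677, and r was -0.517 without 2 arrays and -0.592 with slide means removed. Mccc1 had -0.681 with the epididymis markers (adjusted p = 0.106), and -0.404 without 2 arrays. Slc7a8 had r = 0.608 with the red blood cell markers (adjusted p = 0.112) and 0.534 with the macrophage markers (adjusted p = 0.217). Mccc2 had -0.596 with the epididymis markers (adjusted p = 0.112), and -0.456 without 2 arrays. With the smooth muscle markers Mccc2 had -0.511 (adjusted p = 0.218). For Slc3a2 the adjusted p was at least 0.407 with each of the 10 lists.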
